A study of Mus musculus with 3 samples.

Results

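The genes described here encode the enzymes that place methyl groups on histone lysines and the enzymes that take them off. They were chosen by name alone, as the Kmt2, Setd, Setdb, Suv39h, Suv420h, Ehmt, Smyd, Nsd1, Whsc1 and Dot1l genes and the Kdm genes other than Kdm2b, and no measured value enters that rule, although earlier results of these data were known when it was made. Of the 25350 genes that stood alone under their name in all 3 samples, 43 were of this kind, 26 with a SET domain or Dot1l and 17 lysine demethylases. Setd2 and Kmt2b stood alone in only some of the samples and brought the number to 45. Poly(A) RNA of mouse embryonic stem (ES) cells of the C57BL/6 strain was sequenced, with 1 sample each of wild-type (WT) cells, of Pcgf1 knockout (Pcgf1-/-) cells and of Pcgf1-/- cells that carried a FLAG-tagged Pcgf1 (Pcgf1-/- + Pcgf1, the rescued cells). The knockout was made with Cas9 and grown out from picked colonies. The rescued line came from the knockout by lentiviral infection and puromycin selection, so it shares the knockout's deletion and history. All 3 lines were grown with serum and leukemia inhibitory factor on mitomycin-treated mouse embryonic fibroblasts, and RNA of the feeder layer can be part of each sample. With 1 sample per group there was no replicate error to set a difference against, and no p-value is given.

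Levels are in FPKM, mapped fragments scaled to transcript length and to the size of the library, which is a value per length and lets genes be set beside each other. Pcgf1 itself had 14.0 FPKM in WT, 5.88 in Pcgf1-/- and 7.86 in rescued cells, so the knockout library held less of its transcript and the rescued library lay nearer to the knockout than to WT. These values count transcript and not protein. The paper reports a truncated transcript and no detectable Pcgf1 protein in the knockout, and a return of embryoid body size with the FLAG-tagged Pcgf1. It also reports that differentiation markers in embryoid bodies returned to near control levels with it. By its RNA-seq, most genes altered in the knockout moved more than 2-fold the other way in rescued cells. The pluripotency genes Pou5f1 (670, 518 and 626 FPKM in WT, Pcgf1-/- and rescued cells) and Esrrb (85.3, 94.8 and 77.2) were high throughout. Nanog, another of the 7 measured ES cell markers, had 68.2, 46.3 and 123 FPKM, a log2 ratio of 1.41 for rescued over Pcgf1-/- cells, and was the only marker of the list past 2-fold in a comparison. Of 21 fibroblast markers 18 stood alone under their name, and 17 of them were above 0 in at least 1 sample. Their sum was 191 FPKM in WT, 135 in Pcgf1-/- and 144 in rescued cells, most of it from Fn1 and Vim, which ES cells can also express. Col1a1 lay at 1.88, 0.39 and 2.21 FPKM, and Postn was at 0 in all 3. The depth of the libraries is unknown. The lowest step of the values of genes with a single annotated transcript was looked for between 0.03 and 0.07 FPKM times kilobase, below which no such gene above 0 was found, and had a median of 0.0517, 0.0484 and 0.0498 in WT, Pcgf1-/- and rescued cells. It is taken as the worth of 1 fragment where a number of fragments is estimated.

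Histone lysine methylation is written by SET-domain enzymes, and by the unrelated fold of DOT1L, and is erased by amine oxidases of the LSD family and by the iron-dependent jumonji (JmjC) enzymes. Methylation of H3K4 marks promoters and enhancers, that of H3K36 and H3K79 marks transcribed gene bodies, that of H3K9 and H4K20 marks compacted chromatin, and that of H3K27 is the mark of Polycomb repressive complex 2. Pcgf1 is a core subunit of a Polycomb repressive complex 1 variant whose subunit Kdm2b, itself a demethylase, binds unmethylated CG-rich DNA.

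Several of these genes are read through a skipped exon, and the most highly expressed writer and eraser are among them. The exons measured most deeply are shown with 30 bases of the neighbouring exon on each side in lower case and the skipped exon in capitals, 5′ to 3′, from the GENCODE vM21 transcripts of the mm10 build. The Ehmt2 exon lies on the plus strand at chr17:34905610-34905711, the Kdm1a exon on the minus strand at chr4:136582040-136582099 and the Setd8 exon on the plus strand at chr5:124445969-124446084.
Ehmt2 exon 9: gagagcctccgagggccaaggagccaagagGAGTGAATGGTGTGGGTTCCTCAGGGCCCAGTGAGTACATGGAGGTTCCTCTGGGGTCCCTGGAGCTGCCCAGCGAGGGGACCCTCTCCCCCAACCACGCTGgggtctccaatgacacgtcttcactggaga
Kdm1a exon 3: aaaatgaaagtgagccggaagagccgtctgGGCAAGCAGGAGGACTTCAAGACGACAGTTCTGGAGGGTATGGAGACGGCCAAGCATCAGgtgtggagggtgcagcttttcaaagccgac
Setd8 exon 2: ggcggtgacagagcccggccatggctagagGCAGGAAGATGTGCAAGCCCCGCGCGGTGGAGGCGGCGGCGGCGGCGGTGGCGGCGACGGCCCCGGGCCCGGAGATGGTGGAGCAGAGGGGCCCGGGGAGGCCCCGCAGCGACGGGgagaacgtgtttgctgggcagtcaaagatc
All 3 exons are coding over their full length. The Ehmt2 exon has 102 bases and the Kdm1a exon 60, which are whole numbers of codons, whereas the Setd8 exon has 116 and changes the reading frame of what follows it. Among the annotated coding transcripts, 2 of 6 of Ehmt2, 1 of 5 of Kdm1a and 1 of 3 of Setd8 hold the exon.

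The promoters differ in their content of CG dinucleotides, the DNA feature that Kdm2b recognises. The 250 bases before the RefSeq start (GRCm38.p6, 5′ to 3′ along the gene) are shown for the gene with the most CG dinucleotides, Kdm7a, and for a pair of genes past 2-fold in a comparison, Smyd1 and Kdm8, with each CG in capitals. They lie at chr6:39206774-39207023 on the minus strand for Kdm7a, at chr6:71262282-71262531 on the minus strand for Smyd1 and at chr7:125444370-125444619 on the plus strand for Kdm8.
Kdm7a promoter: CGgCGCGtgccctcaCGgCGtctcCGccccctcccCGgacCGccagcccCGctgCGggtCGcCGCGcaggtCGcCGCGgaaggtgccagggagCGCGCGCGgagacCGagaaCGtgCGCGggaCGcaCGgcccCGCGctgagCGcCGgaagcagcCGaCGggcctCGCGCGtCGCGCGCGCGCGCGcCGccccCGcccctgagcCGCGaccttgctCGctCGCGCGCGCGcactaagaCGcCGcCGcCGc
Smyd1 promoter: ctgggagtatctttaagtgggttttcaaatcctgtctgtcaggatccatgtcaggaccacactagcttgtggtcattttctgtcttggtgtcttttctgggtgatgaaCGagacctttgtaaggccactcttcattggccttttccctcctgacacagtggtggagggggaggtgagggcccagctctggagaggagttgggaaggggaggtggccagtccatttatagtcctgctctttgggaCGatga
Kdm8 promoter: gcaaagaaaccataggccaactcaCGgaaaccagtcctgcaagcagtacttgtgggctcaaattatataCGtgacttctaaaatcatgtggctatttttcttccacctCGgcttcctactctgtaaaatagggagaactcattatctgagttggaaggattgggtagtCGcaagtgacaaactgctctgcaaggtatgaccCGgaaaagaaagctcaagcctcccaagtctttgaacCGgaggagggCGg
These windows hold 56, 2 and 7 CG dinucleotides. No window was matched for Kdm6b, which was also past 2-fold in a comparison.

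The members as a whole lay at about the level of an expressed gene. The median of the 43 genes was 11.3 FPKM in WT, 9.67 in Pcgf1-/- and 10.01 in rescued cells, beside medians of 11.9, 11.3 and 10.8 over the 8622 genes above 1 FPKM in all 3 samples. In WT cells 16 of the 43 were at or above 20 FPKM, 13 lay between 5 and 20, 12 between 1 and 5, and 2 lay below 1. In Pcgf1-/- cells the counts were the same 16, 13, 12 and 2, and in rescued cells 15, 15, 11 and 2. The order of the genes was close to the same in each library. Spearman's rho over the 43 genes was 0.95 between Pcgf1-/- and WT, 0.96 between rescued and Pcgf1-/- cells and 0.97 between rescued and WT cells, as a description of 3 libraries aligned and assembled in the same way.

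**Figure D1:**
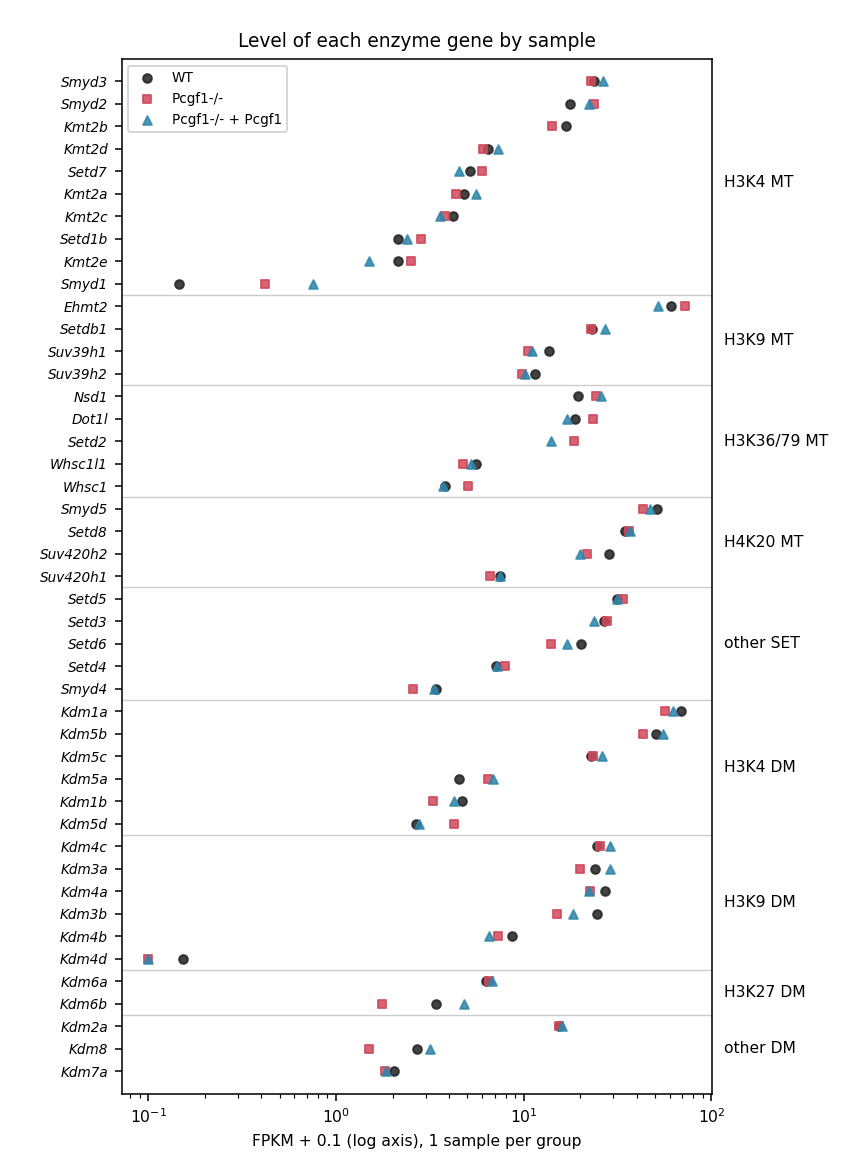
Level of each of the 45 genes (rows, grouped as methyltransferases, MT, and demethylases, DM, by residue) as FPKM + 0.1 on a log axis, with 1 point per sample for WT (circles), Pcgf1-/- (squares) and rescued cells (triangles). The 3 points of most genes sit close together compared with the spread between genes, and Smyd1, Kdm6b and Kdm8 are the most spread.

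Kdm1a and Ehmt2 were the highest in WT and Pcgf1-/- cells. Kdm1a, or LSD1 (ENSMUSG00000036940), removes methyl groups from H3K4 within the CoREST and NuRD complexes, and it had 68.5 FPKM in WT, 56.4 in Pcgf1-/- and 62.6 in rescued cells. Ehmt2, or G9a (ENSMUSG00000013787), writes H3K9 methylation in euchromatin, and it had 60.8, 72.1 and 51.6 FPKM in the same order. Ehmt2 was therefore the highest in Pcgf1-/- cells and Kdm1a in the other two. Close to them were Smyd5 (51.5, 43.0 and 46.7 FPKM) and the H3K4 demethylase Kdm5b (50.4, 43.1 and 55.1 FPKM), which ranked above Ehmt2 in rescued cells on first exons. Of that rescued Kdm5b value 15.8 FPKM lay at a first exon that is not annotated. The last-exon sum of Kdm5b in rescued cells was 39.2 FPKM, below Ehmt2. On last exons its log2 ratio was -0.13 for rescued over Pcgf1-/- and -0.36 for rescued over WT, in place of 0.35 and 0.13. At the other end, Smyd1, a muscle methyltransferase, and Kdm4d, a testis-enriched H3K9 demethylase, were the only members below 1 FPKM.

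Among the H3K4 methyltransferases Kmt2a, Kmt2c, Kmt2d and Setd1b were low. These large proteins are COMPASS enzymes, which work in complexes with Wdr5, Rbbp5, Ash2l and Dpy30. Kmt2d, the enhancer enzyme MLL4, had 6.32 FPKM in WT, 5.94 in Pcgf1-/- and 7.15 in rescued cells. Its paralog Kmt2c had 4.11, 3.72 and 3.50 FPKM. The WT value of Kmt2c is that of its last exon, and its first-exon sum there was 2.196 FPKM, with which the log2 ratio turned from -0.14 to 0.73 for Pcgf1-/- over WT and from -0.23 to 0.65 for rescued over WT. The ratio of Kmt2d to Kmt2c was 1.60 in Pcgf1-/- and 2.04 in rescued cells, and in WT it was 1.54 or, on first exons, 2.88. Kmt2a, the MLL1 enzyme, had 4.69, 4.28 and 5.45 FPKM, and Setd1b, which writes bulk promoter H3K4 trimethylation together with Setd1a, had 2.03, 2.73 and 2.30. The sum of Kmt2a, Kmt2c, Kmt2d and Setd1b was 17.1 FPKM in WT (15.2 on first exons), 16.7 in Pcgf1-/- and 18.4 in rescued cells.

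Kmt2b, the MLL2 enzyme needed for H3K4 trimethylation at bivalent promoters in ES cells, was the highest of the MLL genes, with 16.7 FPKM in WT and 14.1 in Pcgf1-/- cells (log2 ratio -0.24). Both values are last-exon sums, and the first-exon sums of Kmt2b were 9.08 and 7.04 FPKM. In rescued cells it was assembled into a locus shared with Zbtb32, whose row for the same last exon had 14.6 FPKM. The first exons of that locus summed to 12.3 FPKM. Kmt2e, an MLL family member thought to have no methyltransferase activity of its own, had 2.04 FPKM in WT, 2.40 in Pcgf1-/- and 1.39 in rescued cells. Its log2 ratio was 0.22 for Pcgf1-/- over WT and -0.75 for rescued over Pcgf1-/- cells, past 1.5-fold in the second. Setd1a stood in all 3 samples in a locus that also carried Hsd3b7, which had 18.6, 16.8 and 16.9 FPKM, so its own level is not given.

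Most of the class sum, in which Kmt2b and Setd1a are not counted, came from 2 enzymes of the SMYD family, which also methylate proteins other than histones. Smyd3 had 23.6 FPKM in WT, 22.6 in Pcgf1-/- and 26.4 in rescued cells, and on last exons alone its log2 ratio for Pcgf1-/- over WT was 0.57 in place of -0.06. Smyd2 had 17.4, 23.6 and 22.1 FPKM and was higher in both Pcgf1-deleted lines than in WT (log2 ratios 0.44 and 0.34). Its first-exon sums were 13.3, 23.6 and 15.1 FPKM. On first exons alone its log2 ratio was 0.83 for Pcgf1-/- over WT, and -0.64 for rescued over Pcgf1-/- cells in place of -0.10. Together Smyd2 and Smyd3 held 62.8%, 64.6% and 66.1% of the summed H3K4 methyltransferase FPKM. Setd7, which adds a single methyl group to H3K4 and to many other proteins, had 5.05, 5.92 and 4.44 FPKM.

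Smyd1 (ENSMUSG00000055027), on the minus strand at chr6:71213940-71322233, was past 2-fold in 2 comparisons, from a level near the lower end of what the libraries register. It had 0.046 FPKM in WT, 0.32 in Pcgf1-/- and 0.66 in rescued cells. At the steps given above, over the 3361 bases of its longest coding transcript, this comes to about 3 fragments in WT, 22 in Pcgf1-/- and 44 in rescued cells. On the FPKM + 0.1 scale used for all ratios, which holds down the ratios of low genes, the log2 ratio was 1.52 for Pcgf1-/- over WT, 0.86 for rescued over Pcgf1-/- and 2.37 for rescued over WT. Both lines that carry the deletion were above WT, and the rescued line was the highest. These values are first-exon sums, and the last-exon sum of Smyd1 was 0 in every sample. The first exon assembled in Pcgf1-/- cells was not an annotated first exon of the gene, whereas that in WT and rescued cells was. The Pcgf1-/- value therefore belongs to a different assembled start than the other values.

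The H3K9 methyltransferases were led by Ehmt2, on the plus strand at chr17:34898469-34914052. Its log2 ratio was 0.25 for Pcgf1-/- over WT and -0.48 for rescued over Pcgf1-/- cells, so that its value was highest in Pcgf1-/- and lowest in rescued cells. Its partner Ehmt1 was in every sample assembled together with Gm37139, a locus with 23.2 FPKM in WT, 23.5 in Pcgf1-/- and 22.5 in rescued cells. Setdb1, which silences endogenous retroviruses with Trim28, had 23.0, 22.7 and 26.9 FPKM. Setdb2 was named alone in no sample, since its locus also carried Phf11 genes. The heterochromatin enzymes Suv39h1 (13.6, 10.5 and 10.9 FPKM) and Suv39h2 (11.3, 9.67 and 10.01 FPKM) were close to each other, with a ratio of Suv39h1 to Suv39h2 of 1.20, 1.09 and 1.09. The sum of the 4 measured genes was 109 FPKM in WT, 115 in Pcgf1-/- and 99.4 in rescued cells. Its order was that of Ehmt2, since Setdb1, Suv39h1 and Suv39h2 each had their lowest value in Pcgf1-/- cells. The Ehmt2 values are first-exon sums, and its last-exon sum was 0 in every sample. On last exons alone the log2 ratio of the class sum was -0.16 for Pcgf1-/- over WT in place of 0.08. For rescued over Pcgf1-/- cells it was 0.16 in place of -0.21.

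Among the writers on gene bodies, Nsd1, an H3K36 dimethyltransferase, had 19.2 FPKM in WT, 24.1 in Pcgf1-/- and 25.8 in rescued cells. Dot1l, the only known H3K79 methyltransferase, had 18.6, 23.3 and 16.8 FPKM. Whsc1 (Nsd2) had 3.73, 4.94 and 3.59 FPKM and Whsc1l1 (Nsd3) 5.50, 4.67 and 5.11. On last exons alone the log2 ratio of Whsc1l1 for Pcgf1-/- over WT was -0.88 in place of -0.23. The ratio of Whsc1l1 to Whsc1 was 1.48 in WT, 0.94 in Pcgf1-/- and 1.42 in rescued cells. Setd2, which trimethylates H3K36 behind RNA polymerase II, had 18.5 FPKM in Pcgf1-/- and 13.9 in rescued cells (log2 ratio -0.41). In WT it was assembled with Gm42763, and that locus's row for the same last exon had 16.0 FPKM. The sum over Nsd1, Whsc1, Whsc1l1 and Dot1l was 47.1 FPKM in WT, 56.9 in Pcgf1-/- and 51.3 in rescued cells, a log2 ratio of 0.27 for Pcgf1-/- over WT. Dot1l had a first-exon sum of 0 in every sample. On first exons alone the log2 ratio of the class sum for rescued over Pcgf1-/- cells was 0.03 in place of -0.15.

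Of the H4K20 enzymes, Smyd5 and Setd8 were among the 5 most highly expressed members in every sample. Setd8, which adds the first methyl group, had 34.3 FPKM in WT, 36.4 in Pcgf1-/- and 36.8 in rescued cells. Suv420h2 had 28.4, 21.6 and 19.9 FPKM and was lower in both Pcgf1-deleted lines (log2 ratios -0.40 and -0.52 against WT). Suv420h1, its paralog, had 7.39, 6.50 and 7.35 FPKM. The ratio of Suv420h2 to Suv420h1 was 3.85 in WT, 3.32 in Pcgf1-/- and 2.71 in rescued cells. Smyd5, given above, is also reported to act on H4K20 and ribosomal protein.

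Of the SET proteins with no settled histone target, Setd5 had 31.3 FPKM in WT, 33.6 in Pcgf1-/- and 31.4 in rescued cells, and Setd3, an actin histidine methyltransferase, had 26.8, 27.5 and 23.7. Setd6, known for methylating the NF-kappa-B subunit RelA, had 20.1, 13.8 and 17.0 FPKM (log2 ratio -0.54 for Pcgf1-/- over WT). Setd4 (7.04, 7.89 and 7.14 FPKM) and Smyd4 (3.32, 2.49 and 3.21 FPKM) were the lowest of this class. Setd6 and Smyd4 had lower values in Pcgf1-/- than in either other sample, without passing 1.5-fold.

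**Figure D2:**
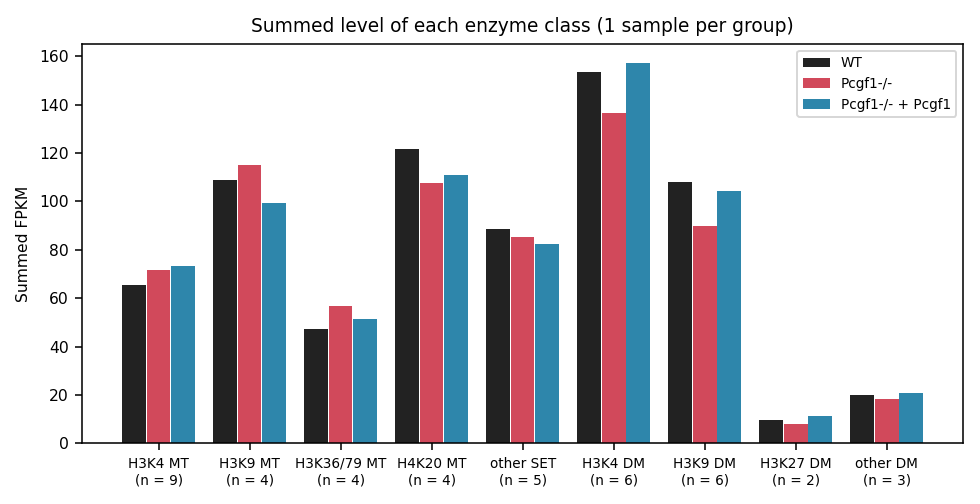
Summed FPKM of the genes of each enzyme class in WT, Pcgf1-/- and rescued cells (bars, 1 sample each; n is the number of genes in the sum; MT, methyltransferases; DM, demethylases). The 4 demethylase sums are each lowest in Pcgf1-/- cells, while the H3K9 and the H3K36 and H3K79 methyltransferase sums are highest there. On last exons alone the H3K27 demethylase sum is lowest in rescued cells. On last exons alone, where Ehmt2 is at 0, the H3K9 methyltransferase sum is lowest in Pcgf1-/- cells. On first exons alone, where Dot1l is at 0, the H3K36 and H3K79 methyltransferase sum is highest in rescued cells.

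The summed level of the demethylase genes was lowest in Pcgf1-/- cells, by a small margin, and its members did not all follow it. The 17 genes summed to 291 FPKM in WT, 253 in Pcgf1-/- and 294 in rescued cells, a log2 ratio of -0.20 for Pcgf1-/- over WT and 0.22 for rescued over Pcgf1-/- cells. The first of these was -0.12 with median-of-ratios scaling. On last exons alone the log2 ratio of the H3K4 demethylase sum for rescued over Pcgf1-/- cells was 0.05 in place of 0.20. For H3K27 demethylases it was -0.525 in place of 0.49, and for H3K36 and other demethylases 0.622 in place of 0.18. On first exons alone the H3K9 demethylase ratio for Pcgf1-/- over WT was -0.15 in place of -0.27. Of the 17, 12 had a lower and 5 (Kdm4c, Kdm5a, Kdm5c, Kdm5d and Kdm6a) a higher value in Pcgf1-/- than in WT, beside 60.0% lower among the 8622 genes above 1 FPKM. The 12 include Kdm4d, which is below 1 FPKM and so outside the 8622 genes. In rescued over Pcgf1-/- cells 13 of the 17 had a higher and 3 a lower value, beside 53.6% lower among the 8622 genes. The 26 methyltransferase genes summed to 431, 436 and 417 FPKM, with log2 ratios of 0.02 and -0.06. Both comparisons share the Pcgf1-/- library, and a low value there enters both. The fibroblast marker sum was also lowest in Pcgf1-/- cells, where 5 of the 18 markers lay more than 2-fold below WT and 0 above it. Among all genes 7.14% were past 2-fold in that comparison. In rescued over Pcgf1-/- cells 6 of the 18 were more than 2-fold higher and 0 lower, beside 8.57% of all genes past 2-fold. Fn1 and Vim, most of the marker sum, had 75.7 and 31.9 FPKM in Pcgf1-/- and 74.9 and 29.3 in rescued cells. The part of the fibroblast markers in the demethylase differences was not tested. In bulk RNA fewer cells of a kind and less RNA per cell cannot be told apart.

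For H3K4 the erasers outweighed the writers in summed FPKM, since the ratio of writers to erasers was 0.43 in WT, 0.52 in Pcgf1-/- and 0.47 in rescued cells, with Kmt2b and the Setd1a locus not counted. Kdm1a and Kdm5b held 77.6%, 72.9% and 74.9% of the eraser sum, with the first-exon sum of Kdm5b used in rescued cells. Kdm1b, the second LSD enzyme, which acts in oocytes, had 4.58 FPKM in WT, 3.20 in Pcgf1-/- and 4.16 in rescued cells. Kdm1a was 14.9-fold, 17.6-fold and 15.04-fold above it. Kdm5c, an X-linked member, had 22.8, 23.3 and 25.9 FPKM.

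Kdm5a, the RBP2 demethylase, was the member above 1 FPKM that differed most between rescued and WT cells. It had 4.43 FPKM in WT, 6.32 in Pcgf1-/- and 6.79 in rescued cells, with log2 ratios of 0.50 for Pcgf1-/- over WT and 0.60 for rescued over WT. Its paralog Kdm5b was 11.4-fold, 6.82-fold and 8.11-fold higher, the last of these on the first-exon sum of Kdm5b. Kdm5d, the Y-linked copy of Kdm5c, had 2.58 FPKM in WT, 4.15 in Pcgf1-/- and 2.66 in rescued cells. Its log2 ratios were 0.67 for Pcgf1-/- over WT and -0.62 for rescued over Pcgf1-/- cells, and the Pcgf1-/- value stood above the other two. Kdm5c and Kdm5d are close in sequence, and how the counting divided their shared reads is not known.

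Most H3K9 demethylases were expressed between 15 and 29 FPKM. Kdm4c, which acts on H3K9 and H3K36, had 24.5 FPKM in WT, 25.3 in Pcgf1-/- and 28.8 in rescued cells. Kdm3a had 23.8, 19.8 and 28.8 FPKM, Kdm4a had 26.99, 22.4 and 22.2, and Kdm4b had 8.52, 7.22 and 6.39. Kdm3b had 24.3, 15.02 and 18.1 FPKM, a log2 ratio of -0.69 for Pcgf1-/- over WT. That ratio rested on the last-exon row, because the first exons of Kdm3b summed to 16.2 FPKM in WT and gave -0.11. Kdm4d was listed at 0.054 FPKM in WT, about 3 fragments over 2695 bases by the step estimate, and at 0 in both other samples.

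The H3K27 demethylases, which oppose Polycomb repressive complex 2, had different patterns. Kdm6a, the X-linked UTX enzyme, had 6.22 FPKM in WT, 6.45 in Pcgf1-/- and 6.66 in rescued cells, with log2 ratios within 0.10 of 0. Kdm6b (ENSMUSG00000018476), the JMJD3 enzyme, on the minus strand at chr11:69398508-69413675, had 3.29 FPKM in WT, 1.67 in Pcgf1-/- and 4.71 in rescued cells. Its log2 ratio was -0.94 for Pcgf1-/- over WT, short of 2-fold, then 1.45 for rescued over Pcgf1-/-, and 0.50 for rescued over WT. The ratio of Kdm6a to Kdm6b was 1.89, 3.88 and 1.42.

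The assembled starts of Kdm6b differed in each library, which bears on that value. In Pcgf1-/- cells there was 1 first exon, and it was the annotated one. In WT both assembled first exons (2.55 and 0.74 FPKM) lay outside the annotated gene, and in rescued cells the annotated exon had 0.71 FPKM beside 1.93 and 2.06 FPKM at 2 others, 1 of them outside the gene. The last-exon rows of Kdm6b equalled the first-exon sum in WT and Pcgf1-/- to within 0.01 FPKM but summed to 0 in rescued cells. The rise in rescued cells is therefore seen in first exons and not in last exons.

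Kdm8 (ENSMUSG00000030752), on the plus strand at chr7:125444676-125462269, is a JmjC enzyme reported to act on H3K36 and as a hydroxylase. It had 2.59 FPKM in WT, 1.40 in Pcgf1-/- and 3.07 in rescued cells, and its first-exon and last-exon sums were equal in every sample. The log2 ratio was -0.85 for Pcgf1-/- over WT, 1.08 for rescued over Pcgf1-/- and 0.24 for rescued over WT. By the step estimate these values correspond to about 120, 69 and 147 fragments. Kdm2a, the H3K36 demethylase that shares the CG-binding domain of Kdm2b, had 15.4, 15.3 and 16.0 FPKM. Kdm7a, which acts on H3K9 and H3K27, had 1.93, 1.73 and 1.75 FPKM.

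Few members passed the fold limits, and the shares were near or below those of other genes. For Pcgf1-/- over WT, 1 of 43 members was past 2-fold (Smyd1, higher), where 7.14% of all 25350 genes were. Of the 41 members above 1 FPKM in all 3 samples, 0 were past 2-fold and 4 past 1.5-fold (Kdm6b, Kdm8 and Kdm3b lower, Kdm5d higher), beside 4.81% and 16.4% of the 8622 genes at that level. For rescued over Pcgf1-/- cells, 2 of 43 were past 2-fold (Kdm6b and Kdm8, both higher), beside 8.57% of all genes and 5.76% of those above 1 FPKM, and of the 41, 2 were past 2-fold and 4 past 1.5-fold (Kmt2e and Kdm5d, both lower, besides), the latter beside 16.7%. For rescued over WT, 1 of 43 was past 2-fold (Smyd1), beside 6.34%, and among the 41 there were 0 past 2-fold and 1 past 1.5-fold (Kdm5a), beside 2.78% and 12%.

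The middle of the distribution lay near 0 in each comparison. The median log2 ratio of the 41 members above 1 FPKM was -0.09 for Pcgf1-/- over WT, 0.06 for rescued over Pcgf1-/- and -0.01 for rescued over WT. The medians of the 8622 genes were -0.08, -0.03 and -0.12, so a general shift of the libraries of this size lies under every ratio given here. The median size of the log2 ratio, whatever its sign, was 0.24, 0.19 and 0.18 for the members and 0.23, 0.23 and 0.22 for the genes at that level. In Pcgf1-/- over WT 24 of the 41 members (58.5%) had a lower value, beside 60.0% of the 8622 genes. In rescued over Pcgf1-/- cells 15 of the 41 (36.6%) did, beside 53.6%, and in rescued over WT 21 of the 41 (51.2%) did, beside 66.3%.

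**Figure D3:**
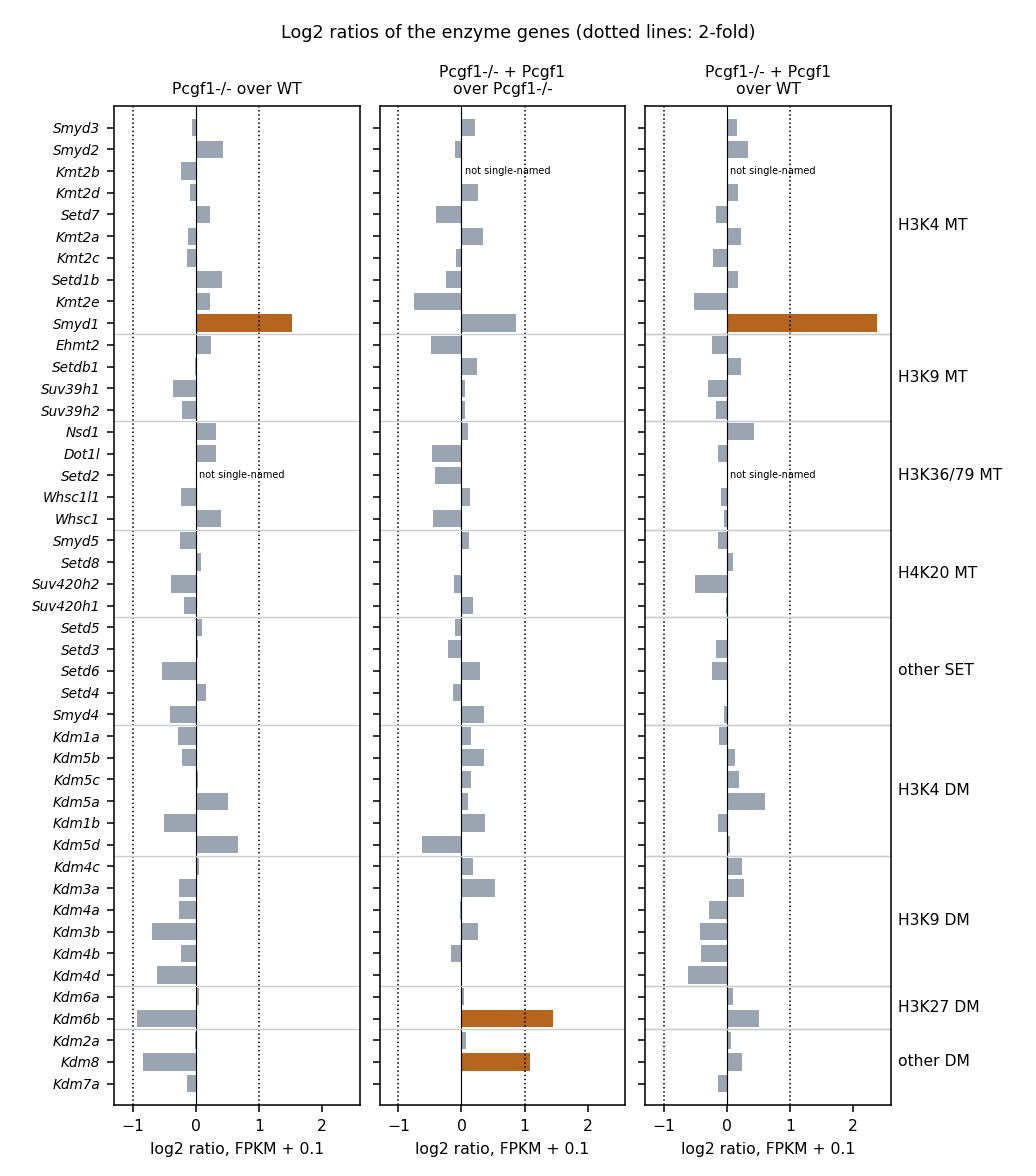
Log2 ratio of FPKM + 0.1 for each gene (bars, 1 sample per group) in the 3 comparisons, with dotted lines at 2-fold and bars past it in brown. Smyd1 passes the line for Pcgf1-/- over WT and rescued over WT, and Kdm6b and Kdm8 pass it for rescued over Pcgf1-/- cells.

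First exons were the same in all 3 samples for 25 of the 41 members that had a first exon above 0 in each, and 18 of these used 1 start. The other 16 had a start assembled in only some samples. The upstream start of Ehmt2 held 79.9% of its first-exon FPKM in WT, 74.1% in Pcgf1-/- and 80.8% in rescued cells. For Kdm3a the downstream start held 76.3%, 67.4% and 75.3%, and for Setd5 it held 71.1%, 67.0% and 65.0%. The upstream start of Suv39h1 held 77.3%, 75.3% and 49.8%, with the lowest share in rescued cells. Whsc1 was assembled from a different annotated start in rescued cells than in the other two. Without replicates the assembly's own variation cannot be told apart from a change of start.

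Exon inclusion, the share of FPKM of the transcripts with the exon among those with and without it, could be followed in all 3 samples for 5 exons of the members, out of 62 skipped-exon events listed in each. Inclusion of the Ehmt2 exon shown above was 61.4% in WT, 46.5% in Pcgf1-/- and 53.8% in rescued cells. For the Kdm1a exon, known as exon 2a, it was 63.5%, 52.5% and 61.8%. Both were lowest in Pcgf1-/- cells, with differences of -14.95 and -11.05 percentage points against WT. The Setd8 exon was included at 81.5%, 74.7% and 67.7%, lowest in rescued cells.

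The other exons were measured at lower levels. An exon of 105 bases in Kmt2c had an inclusion of 67.6%, 61.6% and 65.5%, and an exon of 60 bases in Setd4 had 21.2%, 42.4% and 32.2%. Differences of more than 10 points were common among exons measured at higher levels, a set that does not hold the Kmt2c and Setd4 exons. Among 381 skipped exons of 339 genes with both forms above 0 and at least 10 FPKM in each sample, 29.4% differed by more than 10 points between Pcgf1-/- and WT, 30.4% between rescued and Pcgf1-/- cells and 27% between rescued and WT cells. Of the 3 member exons in that set, Ehmt2 and Kdm1a passed 10 points for Pcgf1-/- against WT, none did for rescued against Pcgf1-/-, and Setd8 did for rescued against WT.

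**Figure D4:**
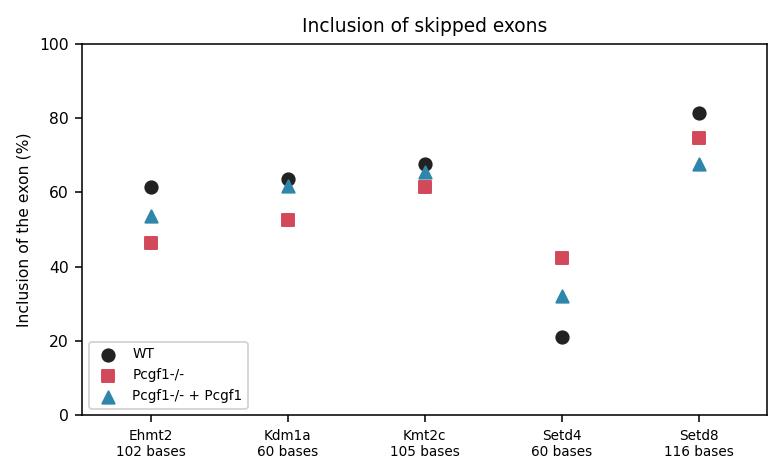
Inclusion of the 5 skipped exons with both forms above 0 in every sample, as a percentage of the FPKM of both forms (1 point per sample). The Ehmt2 and Kdm1a exons are lowest in Pcgf1-/- cells, the Setd4 exon is highest there, and the Setd8 exon is lowest in rescued cells.

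A RefSeq promoter window was matched for 33 of the 45 genes. Where a gene had several windows the one with the most CG dinucleotides was used. The median count over the 250 bases was 22 in the members, 18 in 6696 genes above 1 FPKM and 6 in all 27025 symbols with a window. At least 10 CG were found in 30 of the 33 members (90.9%), beside 83.4% of the expressed genes and 40.2% of all symbols. The exceptions were Setd5 with 0, Smyd1 with 2 and Kdm8 with 7. Setd5 had 1 window and 2 assembled starts, and which start the window belongs to was not examined. A match of letters is a description of the window and not of what binds there. The genes with the most CG, Kdm7a (56), Kmt2c (48) and Dot1l (44), had log2 ratios for Pcgf1-/- over WT of -0.15, -0.14 and 0.32, and that of Kmt2c was 0.73 on first exons.

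**Figure D5:**
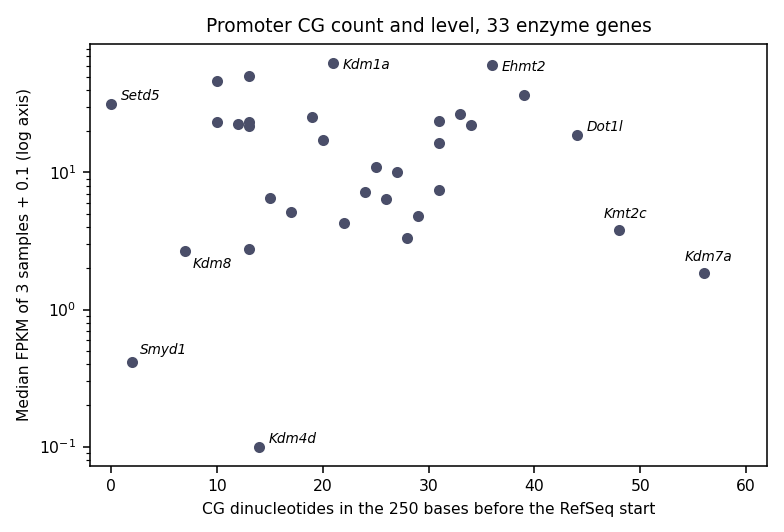
Number of CG dinucleotides in the 250 bases before the RefSeq start against the median FPKM of the 3 samples plus 0.1 (log axis), 1 point for each of 33 genes. Highly expressed genes are found from low to high counts, and Smyd1 combines a low count with a low level.

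The partners of these enzymes were mostly within 2-fold. Of 10 measured COMPASS partners, 9 of LSD1, 9 of the H3K9 enzymes and 5 of DOT1L, none was past 2-fold for Pcgf1-/- over WT, beside 7.14% of all genes and 4.81% of those above 1 FPKM, with median log2 ratios of -0.14, -0.01, -0.13 and -0.12. For rescued over Pcgf1-/- cells the DOT1L partner gene Aff1 alone was, where 8.57% of all genes were, with 0.96 FPKM in WT, 0.88 in Pcgf1-/- and 2.70 in rescued cells. Among 10 measured genes of related enzymes under other names, 4 were past 2-fold for Pcgf1-/- over WT, where 7.14% of all genes were. The H3K36 methyltransferase Ash1l had 1.17, 2.53 and 1.88 FPKM, and the H3K9 demethylase Hr had 0.70, 1.59 and 1.14. Setmar had 2.97, 1.39 and 1.94 FPKM, and the meiotic H3K4 methyltransferase Prdm9 had 0.62, 0.20 and 0.25. All 4 are expressed at under 3 FPKM in every sample.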

How the data were processed

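RNA-seq was analysed in 3 samples, 1 per group, grouped by the genotype label. The authors aligned reads to mm10 with TopHat2 2.0.12 and deposited, for each sample, transcript events with an FPKM each. The submitters' notes also name Cufflinks 2.2.1 and HTSeq 0.6.0, and the program that listed the events is not given in the sources used here. For each gene named alone on a row, the value is whichever of the first-exon and last-exon FPKM sums is greater. Unnamed, date-like and multiply named rows were not used. Ratios use FPKM + 0.1 and calls made past 2-fold or 1.5-fold. The unit is not a count, so no count test was run. Inclusion was the FPKM with an exon over that with and without it. Events of members numbered 481, 500 and 507 rows in WT, Pcgf1-/- and rescued cells. Precision could not be given as an interval. The calling code was tested on simulated data. Members, enzyme classes and gene lists were chosen with earlier results of these data known. Named in full were members past 1.5-fold, the highest and lowest of each class, members at 0, and close paralogs. In all, 7 alternative settings were tried. Gene positions are from GENCODE vM21, promoters from RefSeq, and Python 3.11.15, numpy 2.4.6, pandas 2.3.3 and matplotlib 3.10.9 were used.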

Additional observations from a re-analysis of the deposited data

How the results depend on the processing

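Counts of members past 2-fold were 1, 2 and 1 of 43 for Pcgf1-/- over WT, rescued over Pcgf1-/- and rescued over WT. With a pseudocount of 0.01 FPKM the counts were 2, 3 and 2, and with 1 FPKM the counts were 0, 1 and 0. Keeping the 41 genes of at least 1 FPKM in a sample gave 0 in the first and last. Last-exon rows only, available for 31 genes, gave 2, 3 and 2. The first were Setd7 (5.91) and Suv420h1 (-4.20) in place of Smyd1, each with a last-exon sum of 0 in a sample. The 15 genes with equal sums, a setting chosen after seeing the data, gave 0, 1 and 0. With last exons only, the log2 ratio of Kdm6b for rescued over Pcgf1-/- cells was -4.14 in place of 1.45, because its last-exon sum in rescued cells was 0. Median-of-ratios scaling moved values for rescued over WT upward, to 0.11 for the members' median and to 0.094, 0.068 and 0.13 for the log2 ratio of the summed FPKM of all members, of methyltransferases and of demethylases. Last-exon rows gave -0.14 for that median, 0.10 for methyltransferases and -0.24 for demethylases in the same comparison, and 0.056 and 0.053 for rescued over Pcgf1-/- cells. Of 69 alternative values for counts, medians and these sums, 48 stayed within 1.5 times or 0.1 on the log2 scale. With 1 sample per group no sample could be left out. No paired analysis was possible because each group has only 1 sample.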
